A study of Rattus norvegicus with 3 samples.

Results

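Secreted antagonists of Wnt signaling and genes read out as its targets were examined as a set of 10 genes in rat osteosarcoma COS1NR, rat malignant fibrous histiocytoma (MFH) MFH1NR and rat mesenchymal stem cells (MSCs). The genes were taken by name: the antagonists Dkk1, Dkk3, Sfrp1, Sfrp2, Sfrp4, Frzb, Wif1 and Sost, and the readouts Axin2 and Lef1. Of these, 8 had a probe named through its RefSeq accession, among 13301 such genes on the array. Sfrp1 and Wif1 had none and were not analysed here. Well above background on at least 1 array were 7 of the 8, against 10010 of the 13301 genes, and Sost was the exception.

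All cells came from rats of the strain F344, whose age and sex are not given in the sources used here. Both sarcoma lines grew out of tumors that 4-HAQO, a chemical carcinogen, had caused in such rats, and each is a single line reported to carry a p53 mutation. The MSCs were bone marrow cells of the femur that grew on plastic and were not sorted by surface marker. One-color arrays with Cy3-labeled RNA were run, 1 per cell type, which leaves every difference below without a replicate check or a test. The error given with an intensity is the estimate of the scanner software for that spot, which covers neither culture nor labeling. COS1NR and MFH1NR were scanned on 1 slide and MSCs on a different one. The MSCs were also kept in a higher share of fetal bovine serum than the lines, per the study's methods. Effects of slide, serum and cell type therefore cannot be told apart against MSCs, and both of those comparisons share the 1 MSC array.

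Wnt ligands are secreted proteins that bind Frizzled receptors together with LRP co-receptors at the cell surface. The signal stabilizes beta-catenin, which enters the nucleus and acts with TCF and LEF factors on target genes. Secreted antagonists work upstream of this step: the sFRP family, which includes Frzb, and Wif1 bind the ligands, while Dkk1 and sclerostin, the product of Sost, bind the co-receptors. In bone, Wnt signals direct mesenchymal progenitors toward the osteoblast lineage, and sclerostin made by osteocytes restrains them.

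The 250 bases before the annotated start of 4 of the genes are shown, since 2 of them carry letters bound by TCF and LEF factors and 2 do not. The sequences are those of RefSeq on the build GRCr8, 5′ to 3′ on the strand of the gene, and capitals mark the matches. Axin2 is read on the plus strand of chr10:94398535-94398784, Dkk1 on the minus strand of chr1:237798651-237798900, Sfrp2 on the plus strand of chr2:171387286-171387535 and Lef1 on the plus strand of chr2:222340463-222340712.
Axin2: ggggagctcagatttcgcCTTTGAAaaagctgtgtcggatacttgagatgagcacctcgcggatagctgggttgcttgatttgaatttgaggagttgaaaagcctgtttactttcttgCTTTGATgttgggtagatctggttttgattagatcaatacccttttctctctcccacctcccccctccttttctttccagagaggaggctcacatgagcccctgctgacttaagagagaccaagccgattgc
Dkk1: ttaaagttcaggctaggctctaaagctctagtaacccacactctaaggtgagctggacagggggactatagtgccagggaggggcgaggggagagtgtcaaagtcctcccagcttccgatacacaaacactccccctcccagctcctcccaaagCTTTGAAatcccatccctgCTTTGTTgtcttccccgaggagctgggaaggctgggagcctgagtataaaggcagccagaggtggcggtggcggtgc
Sfrp2: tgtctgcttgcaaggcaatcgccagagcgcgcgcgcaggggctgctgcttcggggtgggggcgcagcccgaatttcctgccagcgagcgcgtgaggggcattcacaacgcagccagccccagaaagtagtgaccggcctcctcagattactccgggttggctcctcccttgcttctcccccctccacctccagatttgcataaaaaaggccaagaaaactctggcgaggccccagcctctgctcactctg
Lef1: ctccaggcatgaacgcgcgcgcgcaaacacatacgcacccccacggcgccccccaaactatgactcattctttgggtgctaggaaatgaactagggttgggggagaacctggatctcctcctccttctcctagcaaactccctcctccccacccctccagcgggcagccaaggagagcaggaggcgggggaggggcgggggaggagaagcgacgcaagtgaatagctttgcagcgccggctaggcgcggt
The letters CTTTGAA, the variant CTTTGAT, the variant CTTTGTA and the variant CTTTGTT were searched on both strands in the 7 genes with an entry, which left out Dkk3, Sfrp1 and Sfrp4. SOX factors bind letters that overlap these. Axin2 held CTTTGAA from 232 to 226 bases and CTTTGAT from 132 to 126 bases before the start. Dkk1 held CTTTGAA from 96 to 90 bases and CTTTGTT from 77 to 71 bases before the start. Sfrp2, Frzb, Wif1, Sost and Lef1 held none in this window. Of 33469 rat promoters of the same length, 14.9% held at least 1 match and 1.73% held 2 or more. The ratio of observed to expected CpG was 0.353 in Axin2, 0.248 in Dkk1, 0.623 in Sfrp2 and 0.681 in Lef1, against a median of 0.383 over all promoters. A match of letters describes the sequence and is not evidence of binding.

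Each array held 43379 spots that are not controls, of which 56.6% to 59.7% were well above background by the call of the software, and none was saturated. Levels are given as processed intensity, and ratios were taken after each array was divided by its own 75th percentile, which stood at 589 for MSCs, 774 for COS1NR and 994 for MFH1NR. If only 1 of the arrays compared was well above background, the ratio is a bound, set against the higher of the probe's own level and the lowest level well above background on that array. That lowest intensity was 17.9 in MSCs, against 29.4 in COS1NR and 30.1 in MFH1NR. All 12 markers of mesenchymal stromal cells were well above background in MSCs, 9 in COS1NR (not Thy1, Eng and Lepr) and 10 in MFH1NR (not Eng and Lepr), with levels summing to 1073, 151 and 278 times the 75th percentile. Their part in the results was not tested. Of 7 osteoblast markers, 5 were well above background in MSCs (not Sp7 and Phex), 4 in COS1NR (not Sp7, Dmp1 and Phex) and 5 in MFH1NR (not Dmp1 and Phex), summing to 75.6, 30.8 and 153. These sums were mostly Spp1, at 6142%, 2880% and 15008% of the 75th percentile. Spp1 and Sp7 were higher in MFH1NR than in MSCs, whereas Alpl, Bglap, Ibsp and Dmp1 were lower. All 14 macrophage markers were well above background in MSCs, but 6 in COS1NR and 5 in MFH1NR, and their levels summed to 184, 9.57 and 4.61 times the 75th percentile. Adgre1, Itgam, Ptprc and Lyz2 were among those not well above background in either sarcoma. Osteoclast markers summed to 71.7, 2.66 and 7.43 and adipocyte markers to 9.06, 41.2 and 0.353 in the same order of arrays. The osteoclast sum was mostly Mmp9 in COS1NR and Ctsk in MFH1NR. Ctsk was higher in MFH1NR than in COS1NR, whereas Acp5 and Mmp9 were lower. The adipocyte sum in COS1NR was mostly Fabp4, and Adipoq and Cfd were lower there than in MSCs. The part of these cells in the comparisons was not tested, and fewer cells of a type cannot be told apart from less RNA per cell.

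Dkk3 was strongly expressed in MSCs and MFH1NR and near background in COS1NR. It is a divergent Dickkopf protein, and its action on Wnt signaling is less direct than that of Dkk1. Its intensity was 7032 ± 703 in MSCs, against 24.8 ± 6.61 in COS1NR and 2503 ± 250.4 in MFH1NR. COS1NR thus lay at least 314-fold under MSCs and at least 66.3-fold under MFH1NR. MFH1NR was 4.74-fold below MSCs, a log2 ratio of -2.25 with a software error of 0.20.

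Dkk1, which blocks the LRP co-receptors, was well above background in MFH1NR only. Its intensity was 3.97 ± 3.95 in MSCs, against 6.52 ± 6.50 in COS1NR and 141 ± 15.6 in MFH1NR. The level in MFH1NR was at least 4.68-fold above MSCs and at least 3.74-fold above COS1NR, and no ratio can be given between COS1NR and MSCs. The comparison with MSCs was under 2-fold after normexp background correction, with a log2 bound of 0.90. The Dickkopf genes thus ran in opposite directions from MSCs to MFH1NR, while in COS1NR neither was well above background.

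Sfrp4, a ligand-binding sFRP, followed the order of Dkk3 over the arrays. By its brighter probe, its intensity was 5695 ± 569.5 in MSCs, against 22.4 ± 7.33 in COS1NR and 1297 ± 129.9 in MFH1NR. By its other probe, it was 4002 ± 400.2, 10.4 ± 7.15 and 749.8 ± 75.3. Both probes were highest in MSCs, intermediate in MFH1NR and not well above background in COS1NR. The bounds in COS1NR were at least 255-fold below MSCs by the brighter probe and at least 179-fold by the other. MFH1NR was 7.41-fold below MSCs by the brighter probe and 9.01-fold by the other, log2 ratios of -2.89 and -3.17 with a software error of 0.20 each. This gap between probes was smaller than the median gap of 0.32 found over 1985 genes with several probes for the same comparison. Between the sarcomas, Sfrp4 was at least 34.3-fold and 19.9-fold higher in MFH1NR.

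Sfrp2, of the same family, had the reverse pattern, being well above background in COS1NR alone. Its 3 probes had intensities of 306 ± 31.1, 777 ± 77.9 and 358 ± 36.4 in COS1NR. In MSCs, they had 14.5 ± 3.86, 4.08 ± 4.07 and 4.17 ± 4.16, and in MFH1NR 13.7 ± 6.19, 6.68 ± 6.65 and 6.92 ± 6.89, none of them well above background. COS1NR was at least 13.0-fold, 33.0-fold and 15.2-fold above MSCs by these probes. Against MFH1NR, it was at least 13.1-fold, 33.2-fold and 15.3-fold higher. The 3 probes share 1 accession, so they measure the same transcript and are not replicates of the culture.

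Frzb, an sFRP first known from cartilage, was well above background in MSCs only. Its intensity was 197 ± 20.3 in MSCs, against 12.2 ± 6.86 in COS1NR and 22.1 ± 7.17 in MFH1NR. Relative to MSCs, the level was at least 8.81-fold lower for COS1NR and 11.1-fold for MFH1NR, and no ratio can be given between the sarcomas. Measured sFRP genes of the set lay apart: Sfrp4 was well above background in MSCs and MFH1NR, Sfrp2 in COS1NR and Frzb in MSCs.

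Sost, the osteocyte antagonist, was not well above background on any array, with intensities of 3.79 ± 3.77 in MSCs, against 6.32 ± 6.29 in COS1NR and 6.35 ± 6.32 in MFH1NR. These values lie at the level that the software sets for spots at background, and no ratio was formed. Of 6 osteocyte markers, Sost among them, 3 were well above background in MSCs (Dmp1, Mepe and Pdpn), 1 in COS1NR (Mepe) and 2 in MFH1NR (Mepe and Pdpn). Their summed level was 3.52 times the 75th percentile in MSCs, 40.2 in COS1NR, mostly Mepe, and 5.22 in MFH1NR.

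**Figure D1:**
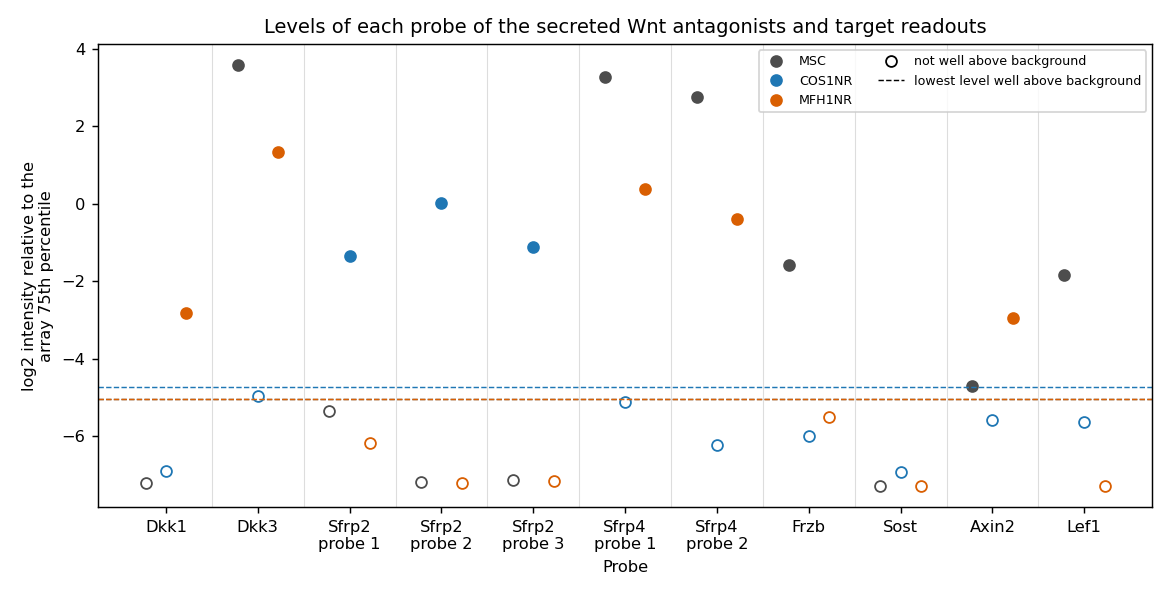
Log2 intensity relative to the 75th percentile of the array (y axis) for each probe of the 8 measured genes (x axis), with 1 point per array. Open points are not well above background and dashed lines mark the lowest level well above background on each array, which nearly coincide for MSC and MFH1NR. Points should be compared within a probe: Dkk3 and Sfrp4 are filled in MSC and MFH1NR, Sfrp2 in COS1NR alone and Dkk1 in MFH1NR alone.

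The readouts differed from each other. Axin2, a scaffold of the complex that destroys beta-catenin and a feedback target of the pathway, was highest in MFH1NR. Its intensity was 22.7 ± 4.47 in MSCs, against 16.1 ± 6.58 in COS1NR and 128 ± 14.4 in MFH1NR, and the value in COS1NR was not well above background. MFH1NR was 3.33-fold above MSCs, a log2 ratio of 1.74 with a software error of 0.33, and at least 3.39-fold above COS1NR. COS1NR was at least 1.02-fold below MSCs, a bound too close to 1 to set them apart. The MSC level lay just above the lowest one called well above background, and after normexp the log2 ratios of MFH1NR fell under 2-fold, to 0.45 against MSCs and 0.84 against COS1NR.

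Lef1, a nuclear partner of beta-catenin that is also a target, was well above background in MSCs only. Its intensity was 163 ± 16.9 in MSCs, against 15.5 ± 6.58 in COS1NR and 6.41 ± 6.37 in MFH1NR. COS1NR lay at least 7.30-fold under MSCs and MFH1NR at least 9.17-fold. In MFH1NR, Axin2 was thus above and Lef1 below its level in MSCs, each by over 2-fold. Of the promoters shown above, that of Axin2 held 2 matches to the TCF and LEF letters and that of Lef1 held none. Any link between these matches and the levels was not tested.

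Of the 10 genes, 7 entered the counts through the filter that kept the 10010 genes. Of these 7, 4 were at least 2-fold lower in COS1NR than in MSCs (Dkk3, Sfrp4, Frzb and Lef1), beside 19.4% of the 10010 genes used, and 1 was higher (Sfrp2), beside 20.0%. In MFH1NR, the same 4 were lower than in MSCs, beside 21.2% of genes, and Dkk1 and Axin2 were higher, beside 19.0%. On the shared slide, 4 were higher in MFH1NR than in COS1NR (Dkk1, Dkk3, Sfrp4 and Axin2), beside 11.7%, and Sfrp2 was lower, beside 14.2%. Dkk1, Sfrp2, Frzb and Lef1 passed the filter through 1 array alone, so that array had to be the higher one. Dkk3, Sfrp4 and Axin2 were not well above background in COS1NR, so COS1NR could count only as the lower side for them. The direction of every count that involves COS1NR was thus fixed by the detection call. None of the 8 measured genes was well above background on all arrays, the pattern of 59.6% of the 13301 genes, in MSCs and COS1NR without MFH1NR (2.80%) or in both sarcomas without MSCs (1.88%). The pattern of Dkk3, Sfrp4 and Axin2, well above background in MSCs and MFH1NR but not in COS1NR, was that of 2.86% of genes. By a looser call of the software, positive and significant over background, Dkk3, Sfrp4 and Axin2 passed in COS1NR too. The pattern of Dkk1 was shared by 2.26%, that of Sfrp2 by 1.41%, that of Frzb and Lef1 by 4.42% and that of Sost by 24.7%. Genes most alike in level could be named only for genes above background on all arrays, so none is given. Among 68 other Wnt pathway genes with a probe, 4 had the pattern of Dkk3 (Notum, Wnt4, Wnt10b and Ror1), 2 that of Dkk1 (Wnt10a and Wnt11) and 4 that of Frzb (Sostdc1, Tcf7l1, Tnfrsf19 and Tnfrsf11b), while none had that of Sfrp2.

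**Figure D2:**
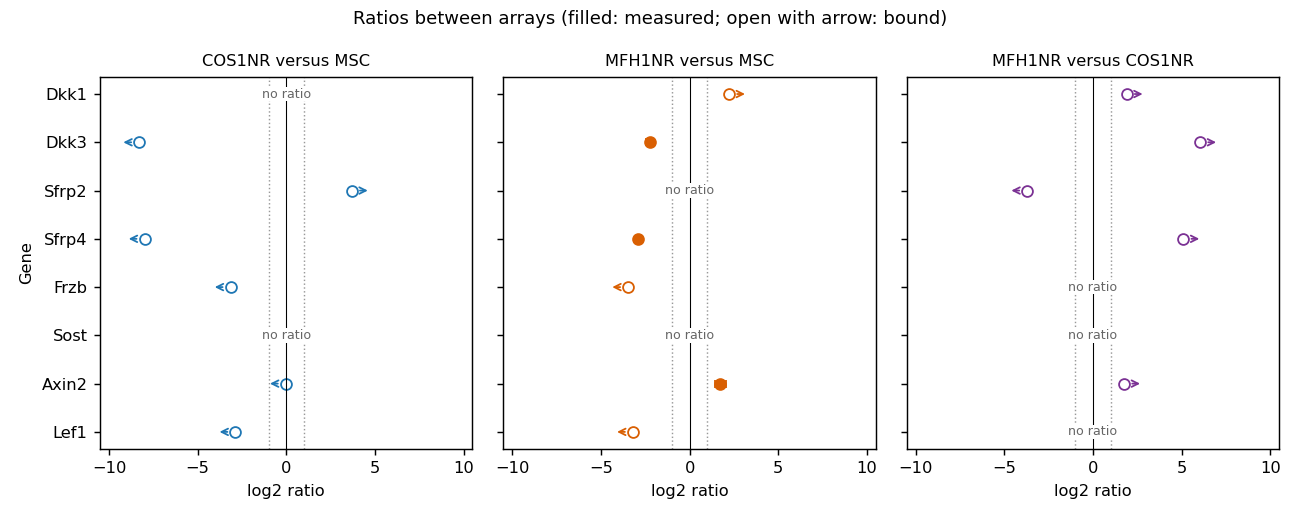
Log2 ratio of the first to the second array (x axis) for each gene (y axis), 1 panel per comparison. Filled points are ratios measured on both sides with the software error as bars, open points with arrows are bounds, dotted lines mark 2-fold, and genes above background on neither side have no ratio. Dkk3 and Sfrp4 lie far to the left in COS1NR and far to the right between the sarcomas, and Sfrp2 lies on the opposite side in both panels.

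The other secreted antagonists added Notum to the genes high in MFH1NR. Notum is an enzyme that removes the lipid which Wnt ligands need, and like Axin2 it is known as a feedback target. Its intensity was 23.9 in MSCs, against 6.45 in COS1NR, where it was not well above background, and 610.2 in MFH1NR. MFH1NR was 15.1-fold above MSCs and at least 16.2-fold above COS1NR. Igfbp4, which binds insulin-like growth factors and can hinder Wnt receptors, differed from MSCs by -1.29 in COS1NR and -1.68 in MFH1NR on the log2 scale. Sfrp5 was not well above background on any array.

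Of 14 Wnt ligands with a probe, 8 were used, and 5 of these were higher in MFH1NR than in COS1NR, beside 11.7% of all genes, while none was lower, beside 14.2%. Wnt10a and Wnt11 passed the filter through MFH1NR alone, and Wnt10b was not well above background in COS1NR, so these 3 could count only as higher. Wnt10a had an intensity of 5.13 in MSCs and 6.91 in COS1NR, neither well above background, and 3549 in MFH1NR. It was at least 117-fold above MSCs and at least 94.0-fold above COS1NR. Wnt6 had 12.3 in MSCs, not well above background, 30.2 in COS1NR and 497 in MFH1NR, which was 12.8-fold above COS1NR. Wnt10b and Wnt11 were at least 7.65-fold and 5.10-fold higher in MFH1NR than in COS1NR. Wnt4 was highest in MSCs, at 1996 against 24.5 in COS1NR, not well above background, and 36.6 in MFH1NR. COS1NR lay at least 89.2-fold under MSCs, and MFH1NR, measured on both sides, 92.1-fold. Wnt5a, a ligand that can signal without beta-catenin, had 1944 in MSCs, against 333 in COS1NR and 1145 in MFH1NR, log2 ratios to MSCs of -2.94 and -1.52. Against MSCs, Wnt9a was lower in COS1NR (log2 ratio -1.49) and MFH1NR (-1.79). Of the 8 ligands, COS1NR had 5 lower than MSCs, beside 19.4% of all genes, and none higher, beside 20.0%. Wnt4 and Wnt10b, among those 5, were not well above background in COS1NR and could count only as lower. MFH1NR had 3 lower, beside 21.2%, and 4 higher, beside 19.0%. Of those 4, Wnt6, Wnt10a and Wnt11 were not well above background in MSCs and could count only as higher.

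Among receptors and co-receptors, Fzd1, a Frizzled, had an intensity of 4700.4 in MSCs, against 11331 in COS1NR and 6.04 in MFH1NR. MFH1NR thus lay at least 264-fold under MSCs and at least 484-fold under COS1NR. Fzd5 went the other way between the sarcomas, at 42.8 in COS1NR and 220.5 in MFH1NR, a ratio of 4.01. Kremen1, a receptor that acts together with Dkk1, had a log2 ratio of 2.31 between MFH1NR and COS1NR, and Lrp4, which binds sclerostin, had 2.36. Both were lower in COS1NR than in MSCs, at -1.82 and -2.54. Ror2, a receptor of Wnt5a, was lower in COS1NR (log2 ratio -3.97) and MFH1NR (-3.69). Of the R-spondin axis, which regulates Frizzled receptors at the surface, Lgr4 was lower in both, at -2.80 and -1.93. Between the sarcomas, Lgr5 and Rnf43 of this axis were well above background in COS1NR and not in MFH1NR, with log2 bounds of -0.83 and -0.68 that do not reach 2-fold.

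Of the intracellular core, 20 genes were used. Relative to MSCs, COS1NR had 2 higher and 4 lower, beside 20.0% and 19.4% of all genes. MFH1NR had 1 higher and 3 lower, beside 19.0% and 21.2%, so the core lay near or under the share of all genes. Bcl9, a coactivator of beta-catenin, was higher in both, with log2 ratios of 2.26 and 1.30. The corepressor Tle4 was lower in both, at -1.62 and, as a bound, -2.27. Wls, which carries ligands to the cell surface, was lower in MFH1NR at -2.19. The corepressors Tle2 and Tle3 were higher in MFH1NR than in COS1NR, at 1.95 and 2.13.

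Of 12 other target readouts used, COS1NR had 6 lower and 3 higher than MSCs, beside 19.4% and 20.0% of all genes, and the 3 are near that share. MFH1NR had 7 lower and 1 higher, beside 21.2% and 19.0%. Tnfrsf11b, a decoy receptor, was among the lower ones of both, and as it passed the filter through MSCs alone, like Tnfrsf19, it could count only as lower. Nkd2, a feedback inhibitor, differed from MSCs by -5.16 in COS1NR and -5.67 in MFH1NR on the log2 scale. Ccn4, a matricellular target, had -2.70 and -1.62, and Plaur, the urokinase receptor, had -4.74 and -4.86. Jag1 had -3.77 and, under 2-fold, -0.94. Twist1, a mesenchymal transcription factor, was the gene higher in both, at 1.79 and 1.34. Ccnd1 was higher in COS1NR, at 1.32, and under 2-fold in MFH1NR, at 0.14. By its other probe, it was higher in both, at 1.90 and 1.07. Sp5, a target known for its direct response, was not well above background on any array. Axin2 and Notum in MFH1NR thus stood against Lef1, Nkd2 and Ccn4, which were lower there than in MSCs.

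Over all 57 of these genes used, COS1NR had 5 above and 22 below MSCs by at least 2-fold, beside 20.0% and 19.4% of all genes, with a median log2 ratio of -0.58 beside 0.11 over all genes. In MFH1NR, 8 were higher and 17 lower, beside 19.0% and 21.2%, with a median of -0.49 beside 0.02. Between the sarcomas, 15 were higher and 4 lower in MFH1NR, beside 11.7% and 14.2%, with a median of 0.16 beside -0.09. These medians hold bounds, and that between the sarcomas turned to -0.05 beside -0.11 when levels were compared as measured, with no bounds. When only genes above background on all arrays were kept, 41 of these genes and 7932 of all genes remained. Of the 41, COS1NR had 5 above and 17 below MSCs, beside 1641 and 1196 of the 7932. MFH1NR had 2 above and 13 below MSCs, beside 1497 and 1283, and 9 above and 3 below COS1NR, beside 769 and 960. For COS1NR and MFH1NR against MSCs, the medians without bounds were -0.80 beside 0.11 and -0.51 beside 0.01. The split in MFH1NR depended on the scaling, with 16 higher and 9 lower than in MSCs without scaling and 13 and 12 with spike-in scaling. Those scalings moved the median of all genes without bounds from 0.01 to 0.77 and 0.53, and relative to it the counts were 8 and 17 under both. In COS1NR, 8 were higher and 17 lower without scaling, and 5 and 22 relative to such a median of 0.51. Between the sarcomas, the counts were 17 and 2 without scaling and 25 and 2 with spike-in scaling, and 15 and 4 relative to such medians of 0.25 and 0.68. Both settings shift all log2 levels of an array by a constant, which taking out the median removes. The counts relative to the median thus return those reported and are no separate check on the scaling.

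**Figure D3:**
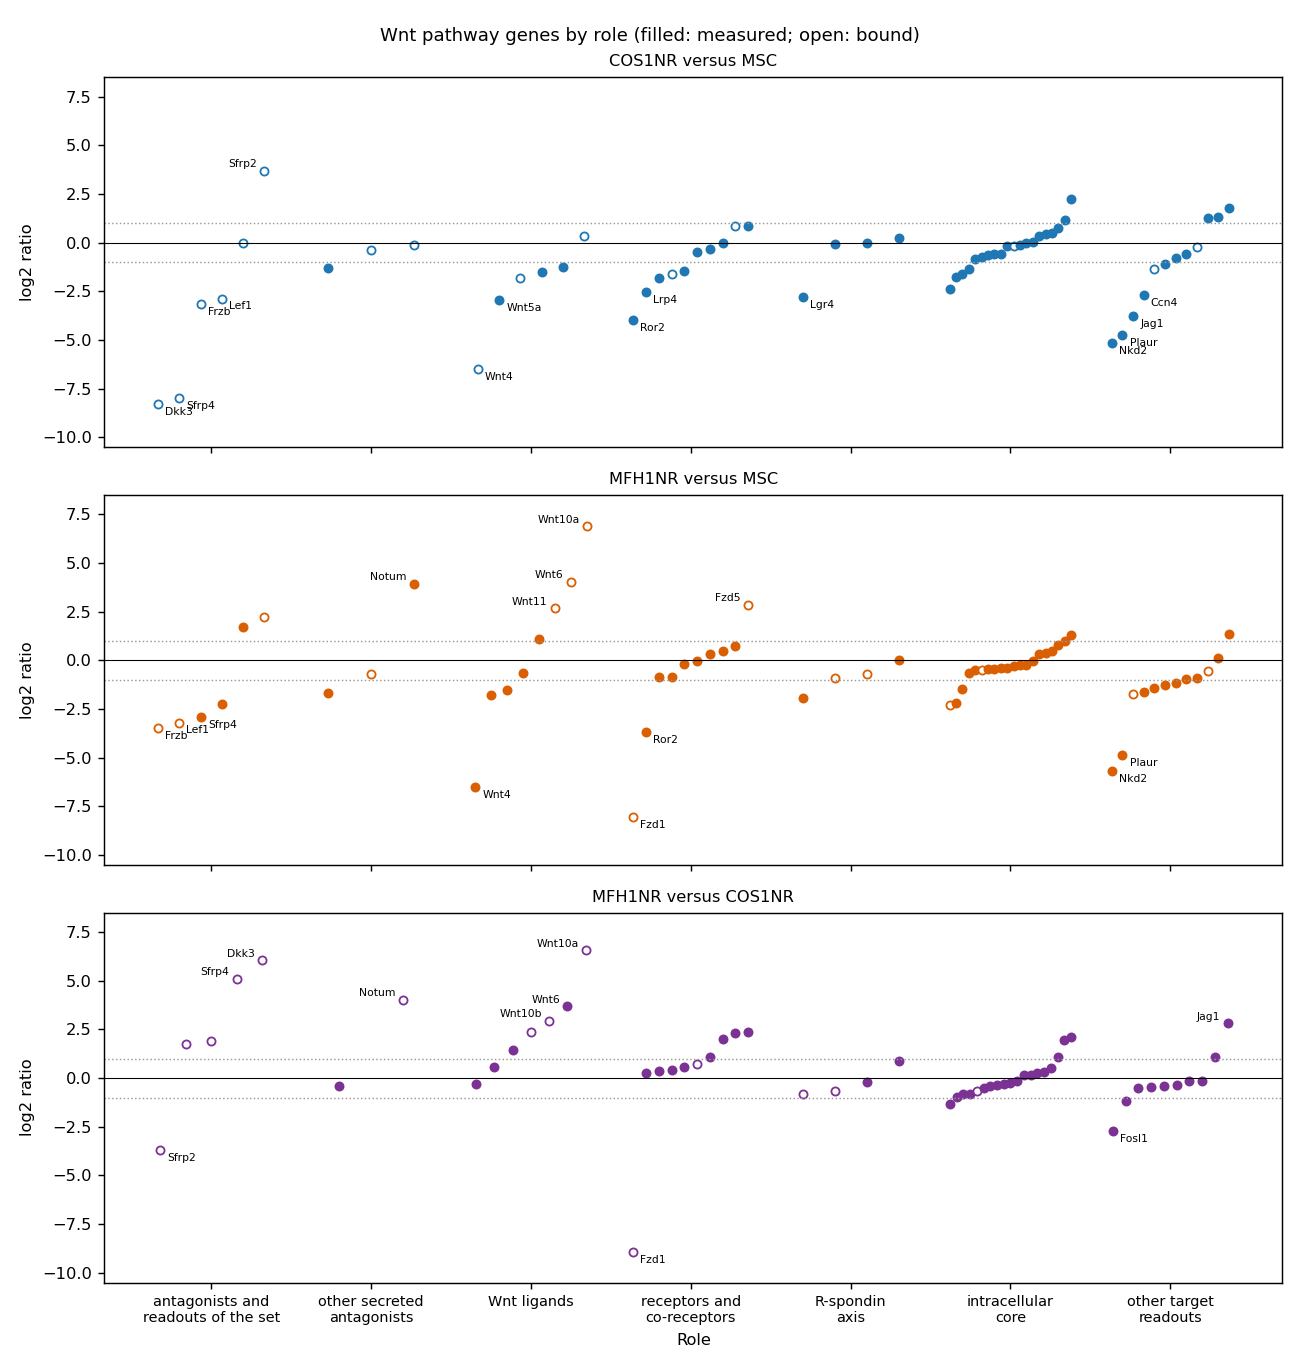
Log2 ratio (y axis) of each gene with a ratio, grouped by role (x axis) and sorted within a role, in 3 panels for the comparisons. Filled points are measured ratios, open points are bounds, dotted lines mark 2-fold and the genes furthest from 0 are named. Wnt10a and Wnt6 stand highest and Fzd1 lowest among the other pathway genes in MFH1NR against MSCs.

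Each bound past 2-fold was nearer to 0 after normexp, whereas that of Axin2 in COS1NR against MSCs went from -0.02 to -0.38. In COS1NR against MSCs, the log2 values became -6.57 for Dkk3, -6.41 for Sfrp4, -1.99 for Frzb, -1.75 for Lef1 and 2.00 for Sfrp2. In MFH1NR, Frzb stood at -2.13 and Lef1 at -2.07, and the measured ratios of Dkk3 and Sfrp4 were -2.13 and -2.91. Without scaling, Dkk3 in MFH1NR was closest to MSCs, at -1.49. Over all genes, the split of those at least 2-fold apart was 2006 higher and 1941 lower in COS1NR against MSCs, and 3160 and 1433 without scaling. In MFH1NR against MSCs, it was 1901 and 2122, and 4063 and 1273 without scaling. Between the sarcomas, it was 1171 and 1420, and 1871 and 958 without scaling. The counts of the 10 genes in each direction were the same without scaling in all 3 comparisons.

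**Figure D4:**
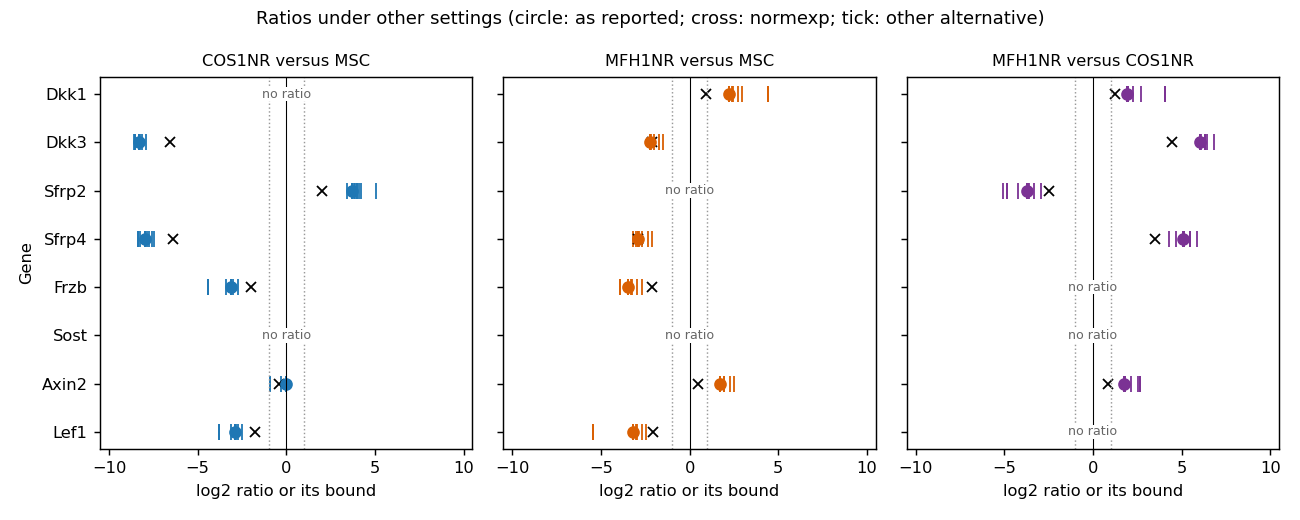
Log2 ratio or bound (x axis) of each gene (y axis) as reported (circle), after normexp background correction (cross) and under every other alternative (ticks), 1 panel per comparison. Every ratio past 2-fold kept its side of 0, which a bound cannot leave unless the detection call changes. The crosses of Dkk1 and Axin2 in MFH1NR against MSCs and of Axin2 against COS1NR lie inside the dotted lines at 2-fold.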

How the data were processed

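RNA of each cell type was labeled with Cy3 and hybridized to 1 whole rat genome array, whose design is annotated against rn4. The authors deposited intensities from Agilent Feature Extraction, version 10.5.1.1 per the file headers and 9.1 per the labels, background-subtracted and detrended within each array and not scaled between arrays. The deposited series table held the same intensities on 3 of 3 arrays. From these, log2 intensities were taken relative to the 75th percentile of spots that are not controls. Spots flagged as outliers (187 to 217 per array) were left out, and repeated spots were averaged by probe. Flags for spots well above background are those of the software, and genes called above background in the text are those with this flag.

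Of 40816 probes kept, 16745 were named by matching RefSeq accessions to a gene table of GRCr8. A gene with several probes was represented by the one of highest mean log2 intensity, so that for Sfrp2 the probe shown first is not the brightest in COS1NR. Probes printed several times had a median SD of 0.047 to 0.057 in log2 within an array, and the number of arrays limits the precision. No test was made, since there was 1 array per cell type. Genes at least 2-fold apart were counted. The genes of the set, the pathway and marker lists and the rules were chosen with earlier results of these data known. Named from each pathway list are genes among the 4 with the largest ratio in a comparison, and others (Twist1, Sfrp5, Sp5 and genes sharing a detection pattern) were chosen after their values were seen.

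As alternatives, arrays were left unscaled, scaled to the median or quantile normalized, and use was made of normexp (offset 50, on the median spot intensity, as no mean intensity was given), the deposited table, gene means over probes, stricter and no filters on dim probes, another detection call (positive and significant over background), a 3-fold threshold and outlier spots kept. The second brightest probe and a scaling on 7 spike-in probes were added after seeing the data. The counting was tested on simulated data. Software was limma 3.58.1 in R 4.3.3, and numpy 2.4.6, pandas 2.3.3 and matplotlib 3.10.9 in Python 3.11.15.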

Additional observations from a re-analysis of the deposited data

Results flagged for a closer look

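Fosl1, an AP-1 factor among the target readouts, was higher in COS1NR than in MSCs, with a log2 ratio of 1.29, and lower in MFH1NR, with -1.42, so the sarcomas moved in opposite directions. Wnt10b, a ligand, was lower in COS1NR, with a log2 bound of -1.82, and higher in MFH1NR, with 1.12. Each direction rests on 1 array, and neither difference was tested.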

How the results depend on the processing

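Of the 16 ratios of single genes in the set that were at least 2-fold, 176 of 176 values under the alternatives kept their direction and 173 stayed at least 2-fold. The exceptions came from normexp, under which no gene of the set was higher in MFH1NR than in MSCs, with 0 in place of 2. Most of the 16 were bounds. A bound is kept only when the array well above background is the higher one, so it could not reverse while that call stood. The deposited table repeats the reported values by construction. Genes of the set lower in MFH1NR than in COS1NR were 2 in place of 1 with no filter on dim probes and with the other detection call, which added Lef1. With genes above background on all arrays only, no gene of the set was left to count. Of 71 such ratios of other Wnt pathway genes, some being bounds, 830 of 830 values kept their direction and 796 stayed at least 2-fold. Among those named, Igfbp4 and Tnfrsf11b (both sarcomas), Tle3 (COS1NR), Ccn4, Fosl1 and Wnt5a (MFH1NR) and Wls (between the sarcomas) were under 2-fold without scaling, Fosl1, Wnt5a and Wls also with spike-in scaling, and Tle4 and Wnt9a (COS1NR) and Bcl9 and Wnt10b (MFH1NR) after normexp. Wnt pathway genes apart in COS1NR against MSCs were 17 with a 3-fold threshold, and those higher there were 8 without scaling and 2 with 3-fold. In MFH1NR against MSCs, 15 were apart with genes above background on all arrays. Higher there were 16 without scaling, 2 with genes above background on all arrays, 5 with 3-fold and 13 with spike-in scaling, and lower were 9 without scaling. In MFH1NR against COS1NR, 12 were apart and 9 higher with genes above background on all arrays, and 25 were higher with spike-in scaling. Lower there were 8 with no filter and with the other detection call, and 2 without scaling, with 3-fold and with spike-in scaling. The cause of these differences was not tested, apart from the fewer genes that the stricter filter and threshold leave. No paired analysis was possible because there was 1 array per cell type. Signal over background limits the ratios of Dkk1, Frzb, Axin2 and Lef1, whose brightest intensities were 141, 197, 128 and 163.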
